A study of Saccharomyces cerevisiae
Saccharomyces paradoxus with 24 samples.

Results

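The left end of yeast chromosome III, from the telomere through the silent mating-type locus HML, held 10 of the 1118 Rap1-bound windows in the deposited table. The windows were taken by position only: all those on chromosome III whose start lies under 16000 bp. Each reaches 150 bp to either side of a peak summit. From the chromosome end inward they were a window at the very end (the left end window), 3 subtelomeric windows, the silencer HML-E, a window inside YCL068C, the HML promoter (HML-p), the silencer HML-I and a pair of overlapping windows on the far side of HML (the right flank windows). Another 23 windows lay elsewhere on chromosome III. The nearest of them, between SRO9 and GFD2 with its last base in GFD2, kept 39.5% of its signal at 60 min.

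Rap1 binds a short DNA motif and has opposite roles along such a chromosome arm. At telomeres it coats the terminal TG repeats and takes part in length control and in recruiting the Sir proteins. At the silencers of HML it is one of the factors that nucleate Sir-silenced chromatin, and between the divergent HMLALPHA2 and HMLALPHA1 genes it binds a promoter site that at MAT, the expressed copy, drives both genes. HMLALPHA1 encodes an activator and HMLALPHA2 a repressor of mating-type genes.

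Cells were depleted of nuclear Rap1 by anchor-away, in which rapamycin ties an FRB-tagged protein to an FKBP12-tagged ribosomal protein that leaves the nucleus. Both isolates were of the W303 background with the markers can1-100, leu2-3,112 and his3-11,15 besides lys2, ura3 and trp1-1. Rap1 was tagged as Rap1(134)-FRB_2xV5 and its anchor was RPL13A-2xFKBP12::TRP1, in cells made tolerant of rapamycin by TOR1(S1972I) and fpr1::NAT. They also carried bar1delta::k.l.URA3, lacked HMR (hmrdelta::HygMX) and had a synthetic HML with single-base changes (hmlalphadelta::UniqueHMLwithSNPs). All of these alleles were present at 0 min too. V5 ChIP-seq was done after 5, 10, 15, 20, 30, 45 and 60 min in 7.5 µM rapamycin and at 0 min, where cells had DMSO (60 min by the labels), with 1 library per isolate and time. This gave 16 ChIP libraries and 2 inputs (chromatin without immunoprecipitation) at 0 min. S. paradoxus cells with V5-tagged Rap1, which never met rapamycin, were added at 5% by optical density as a spike-in. The synthetic HML, the single background and the absence of HMR limit what the isolates stand for, and replicates 1 and 2 are 1 isolate each. Every ChIP value below is the authors' signal, reads in the window per 1000000 S. paradoxus reads of that library.

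S. paradoxus reads per ChIP library numbered 4397759 to 9219038, beside 1201827 to 3401521 reads in windows. Replicate 1 at 30 min had the fewest of the spike-in reads, and its signals stood above those of replicate 2 in several windows described below. The part of that library in those values was not tested. Changes were tested with limma on log2(signal + 1), adjusted by Benjamini-Hochberg over all windows. The spread was pooled over windows, so the standard error of a change against 0 min was 0.27 in every window, and a very small p reflects that pooling more than the agreement of 2 isolates.

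The HML promoter is the only one of the windows whose letters were read here, from the study's list of synthetic DNA. The stretch between the start codons of HMLALPHA2 and HMLALPHA1 has 263 bases (chrIII:13019-13281, plus strand, R64 numbering), all of them inside the HML-p window. Its part from the HMLALPHA2 side up to the Rap1 motif (chrIII:13019-13136, 118 bases) is shown because it places the motif under the peak. Capitals mark the single match in the stretch to the motif ACCCANNCA, searched on both strands and found on the minus strand at chrIII:13128-13136. How often this motif falls in other windows was not analysed here.
HML-p, synthetic allele: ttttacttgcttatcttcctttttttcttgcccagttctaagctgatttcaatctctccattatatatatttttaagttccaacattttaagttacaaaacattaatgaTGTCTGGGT
The centre of the match lay 13 bp from the peak summit at 13145, with 109 bases between it and the HMLALPHA2 start and 145 between it and the HMLALPHA1 start. The whole stretch was 28.1% G and C.

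The single-base changes let reads of HML be told from those of MAT, which otherwise has the same promoter. Lines of native and synthetic letters are set side by side for a qPCR primer of the study that was written for the native promoter, with capitals at each difference.
Primer, native: aagttccaacattttaTgttTc
Primer site, synthetic allele: aagttccaacattttaAgttAc
Counted from the 5′ end of the native letters, the differences in the primer (chrIII:13093-13114) were T17A and T21A. By the paper, such changes run from the E to the I silencer, close enough together to assign even short reads to HML or MAT. A read that held none of them would still fit both loci.

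Before depletion the order along the arm was steep. The left end window (at 120-420), in no annotated gene, had 0 min signals of 13679 and 18944 in replicates 1 and 2 and ranked as number 3 of all 1118 windows. HML-p (at 12995-13295) followed with 798 and 974, HML-I (III_cer.14504.14805, at 14505-14805) with 607 and 893 and HML-E (at 11089-11389), just beyond the end of the transporter gene VBA3, with 597 and 802. Within each library HML-p was above both silencers, by 1.34 and 1.22 times over HML-E and 1.31 and 1.09 times over HML-I, while HML-I and HML-E lay within 1.02 and 1.11 times of each other.

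The other windows were weaker. The window inside YCL068C (III_cer.11807.12108, at 11808-12108), an uncharacterised ORF between HML-E and the HMLALPHA2 gene, had 232 and 272. The subtelomeric windows had 194 and 236 in the pseudogene YCL075W (at 2134-2434), 142 and 159 in the pseudogene YCL074W (III_cer.3360.3661, at 3361-3661) and 99.0 and 128 in the intergenic window (III_cer.4299.4600, at 4300-4600). These 3 fell in the same order in both replicates, going down from the chromosome end inward, and their replicate ranges did not overlap.

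Copy number and mappability also enter such levels, and the input measures them together. Input signal per window was 834 and 1404 at the left end, 343 and 778 in YCL075W, 282 and 610 in the intergenic window, 185 and 440 at HML-E and 144 and 299 at HML-p. Taken as a multiple of the median window of 295 (the mean of both inputs), it ran down from 3.79 at the left end through 1.90, 1.76 and 1.51 in the subtelomeric windows to 1.06 at HML-E and 0.749 at HML-p. Telomere-near DNA is repeated between chromosome ends, and how reads that fit several ends were placed is not given in the sources used here.

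Set against input and relative to the median window, HML stood out and the subtelomeric windows did not. ChIP over input exceeded that of the median window 10.4 and 9.08 times at HML-p in replicates 1 and 2, 6.93 and 6.997 times at HML-I, 6.08 and 5.07 times at HML-E and 2.68 and 1.96 times in YCL068C. In the left end window it was 30.9 and 37.6 times. In limma on 2 ChIP against 2 input libraries these 5 windows and the second right flank window were called above the median window (474 of all 1118, 42.4%). The YCL074W and intergenic windows were called below it (384 of all, 34.3%). The second right flank window had 1.58 and 0.976 times the median window in replicates 1 and 2, so it was above in replicate 1 only.

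Of the subtelomeric windows, none stood above the median window in this measure. In YCL074W the log2 ratio against the median window was -0.48 (SE 0.13, adjusted p = 0.00334, limma) and in the intergenic window -0.64 (SE 0.10, adjusted p = 6.3e-05, limma). In YCL075W it was -0.04 (SE 0.11, adjusted p = 0.765, limma). The peaks had been called against a ChIP from cells without the tag, which is not analysed here.

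**Figure D1:**
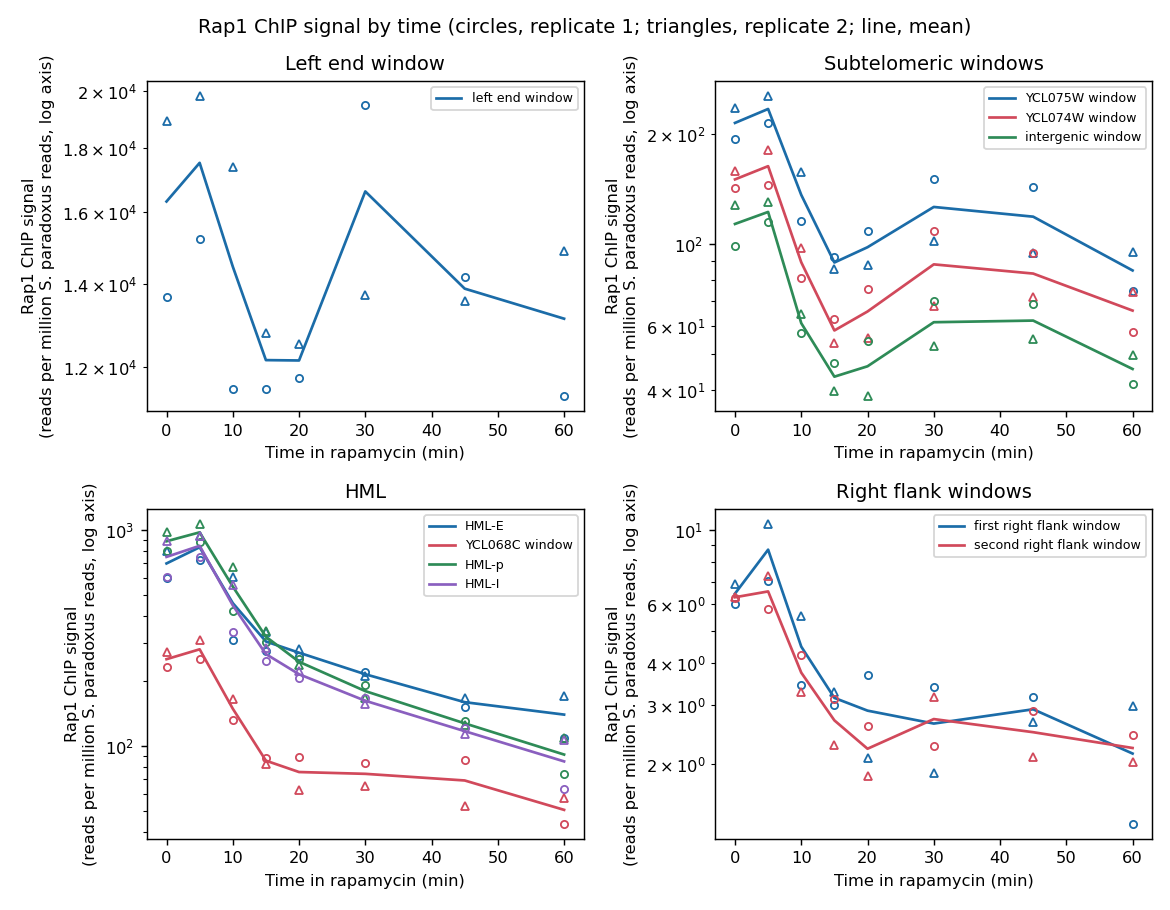
Rap1 ChIP signal (reads per 1000000 S. paradoxus reads, log axis with its own range in each panel) against minutes in rapamycin for the 10 windows in 4 panels; circles are replicate 1, triangles replicate 2 and lines their mean. The left end window stayed between 11375 and 19831, the subtelomeric windows at 60 min were near their 15 min level, with higher values at 20 to 45 min in replicate 1, while HML-p and HML-I fell to 60 min in both replicates and HML-E to 60 min in replicate 1 and to 45 min in replicate 2.

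On rapamycin, 9 of the 10 windows lost Rap1 ChIP signal and the left end window was not called lower at any time. No window was called at 5 min in limma, 0 of 10 also at an unadjusted p under 0.05 in either direction, and of all windows 0% were called lower. At 10 min 8 of 10 were lower (73.1% of all windows), at 15 min 9 of 10 (94.3%) and at 60 min the same count of 9 (96%). The median log2 change at 60 min was -1.31 over the 10 windows and -2.40 over all 1118. The 10 min count fell to 1 without replicate 2 of 0 min and to 2 without replicate 1 of 10 min.

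At 60 min the windows other than the right flank pair formed 4 levels. That pair, at 32.6% and 35.5% of 0 min, is described further on. HML-p fell from 798 and 974 to 73.9 and 108, a log2 change of -3.29 (SE 0.27, adjusted p = 2.74e-32, limma). HML-I fell from 607 and 893 to 62.8 and 106, a log2 change of -3.15 (SE 0.27, adjusted p = 6.24e-30, limma). In both, each 60 min library was below every 0 min library, and 10.2% ± 1.28 (SD, n = 2) and 11.1% ± 1.10 of the 0 min signal were left.

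HML-E and the YCL068C window lost less. HML-E went from 597 and 802 to 109 and 170, a log2 change of -2.34 (SE 0.27, adjusted p = 1.97e-17, limma), and the YCL068C window from 232 and 272 to 43.4 and 57.4, a log2 change of -2.31 (SE 0.27, adjusted p = 5.33e-17, limma). They kept 19.7% ± 2.11 and 19.9% ± 1.66 (SD, n = 2), close to the 18.1% of the median window. The groups of libraries did not overlap in either window.

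The subtelomeric windows kept more again. YCL075W ended at 74.6 and 95.1, YCL074W at 57.5 and 74.3 and the intergenic window at 41.6 and 49.7. That was 39.4% ± 1.23, 43.6% ± 4.47 and 40.3% ± 2.35 of 0 min (SD, n = 2), with log2 changes of -1.33, -1.19 and -1.29 (SE 0.27 each). Each 60 min library was below both 0 min libraries.

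The left end window held 11375 and 14882 at 60 min, 80.9% ± 3.26 of 0 min (SD, n = 2). Its groups overlapped, and the log2 change of -0.31 (SE 0.27) was not called (adjusted p = 0.263, limma). Its course was uneven, since replicate 1 gave 84.2% of 0 min at 10 min, 143% at 30 min and 83.2% at 60 min, whereas replicate 2 ran from 91.8% at 10 min to 72.4% at 30 min and 78.6% at 60 min.

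**Figure D2:**
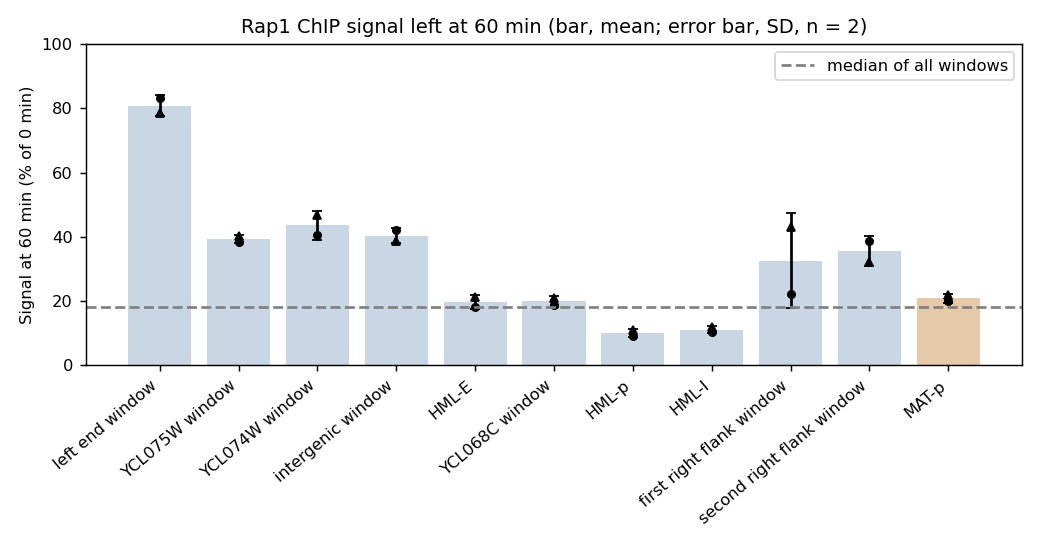
Signal at 60 min as a percent of the same replicate's 0 min signal for the 10 windows and MAT-p; bars are means, error bars SD of 2 replicates, circles replicate 1 and triangles replicate 2, and the dashed line the median of all 1118 windows (18.1%). HML-p and HML-I lie below the line, HML-E and YCL068C next to it, and the other windows above it.

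These falls are relative to the spike-in. Scaled instead to the total over all windows, the median window moved from -2.40 to -1.06, and 4 of the 10 windows were lower at 60 min (HML-E, YCL068C, HML-p and HML-I), while the left end window was called higher at a log2 change of 1.07 and the other 5 were not called. Under this scaling 862 windows were lower and 130 higher. It makes all libraries' totals equal, so a window that fell less than the total comes out higher.

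The left end window resembled other chromosome ends. Of the 25 windows within 300 bp of an end, it had the highest 0 min signal and ranked 12 for the share kept, between 54.9% and 85.9% in that list (median 80.1%). The windows with the most similar course lay at the right ends of chromosomes XIV, XI and VI, with root mean square differences in log2 change of 0.03, 0.04 and 0.04 over the 14 later libraries, against a median of 1.72 for all windows. Reads of such repeats may be shared between ends, so these need not be separate measurements.

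Among the 72 other windows within 15 kb of an end, 7 were from this arm. The list kept a median of 39.2%, and 62 of 72 were lower at 60 min. YCL075W, YCL074W and the intergenic window ranked 36, 25 and 33 for the share kept, in the middle of the list, while HML-E and YCL068C ranked 64 and 63, HML-I 68 and HML-p 70. HML lay at the lower end of the windows near chromosome ends, in contrast to its immediate neighbours on the telomere side. The 23 other windows of chromosome III kept a median of 17.4%, and 22 of them were lower.

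The time course split HML-p, HML-I and HML-E from the subtelomeric windows after about 15 min. At 5 min none had fallen: the subtelomeric windows were at 102% to 116% of 0 min over both replicates, HML-p at 110% in each, HML-I at 124% and 105% and HML-E at 122% and 117%. At 15 min the subtelomeric windows were at 44.0% to 47.8% of 0 min in replicate 1 and 30.9% to 36.3% in replicate 2, and HML-p was at 37.8% and 34.7%, HML-I at 40.9% and 31.8% and HML-E at 45.8% and 41.8%. These 6 windows and YCL068C first fell below 50% of 0 min at 15 min in both replicates. From 10 to 15 min 5 of the 10 windows were lower (80.9% of all), which a fit with the replicate block raised to 7 by adding HML-E (adjusted p = 0.0201) and the intergenic window (adjusted p = 0.031).

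After that the replicates of the subtelomeric windows differed. In replicate 2 they were at 29.9% to 37.2% at 20 min, 41.0% to 43.3% at 30 min, 40.2% to 45.1% at 45 min and 38.7% to 46.8% at 60 min. In replicate 1 they went up to 53.2% to 56.1% at 20 min, 70.5% to 78.0% at 30 min and 66.6% to 73.9% at 45 min, and were at 38.5% to 42.0% at 60 min. Replicate 1 was above replicate 2 at HML too at 30 min, with 23.9% and 17.1% at HML-p, 27.5% and 17.5% at HML-I and 36.7% and 26.2% at HML-E, although each of these was below its 20 min value. YCL068C was at 38.4%, 35.9% and 36.9% at 20, 30 and 45 min in replicate 1, and at 22.8%, 23.9% and 19.3% in replicate 2. What set the replicates apart was not tested.

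HML-p and HML-I were lower at each later time than at the one before in both replicates, and HML-E in all but 1 such step. HML-p read 253 and 237 at 20 min, 191 and 167 at 30 min, 130 and 124 at 45 min and 73.9 and 108 at 60 min. HML-I read 206 and 222, 167 and 156, 121 and 113, and 62.8 and 106 at the same times. HML-E read 260 and 280, 219 and 210, 152 and 167, and 109 and 170, and so did not fall from 45 to 60 min in replicate 2.

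A comparison of 60 with 20 min, chosen after these values were seen, called 3 of the 10 windows lower in limma (6.89% of all 1118). They were HML-p with a log2 change of -1.44 (SE 0.27, adjusted p = 1.66e-05), HML-I with -1.38 (adjusted p = 4.7e-05) and HML-E with -0.98 (adjusted p = 0.00826). YCL068C had -0.56 (adjusted p = 0.295), and the subtelomeric windows lay between -0.21 and 0.01 without a call. Relative to YCL075W, the 4 HML windows were lower from 0 to 60 min in limma (69% of all 1117). From 20 to 60 min 2 windows were (1.97%). HML-E was not called there (-0.77, adjusted p = 0.129), but was with the replicate block (adjusted p = 0.00436). From 15 to 60 min YCL068C was likewise not called (-0.68, adjusted p = 0.0715), but was with the block (adjusted p = 0.00235). The count of 3 under spike-in scaling went down to 1, HML-p, without replicate 1 of 60 min, and to 2 without either 20 min library, when HML-E was lost.

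Relative to the median window the HML sites changed sides. The median window here stands for the shift in each library's median log2 signal. On this scale the median of all windows' own changes lay between 0.08 and 0.21 from 10 to 60 min. HML-p was above the shift at 10 min by 0.49 (SE 0.12, adjusted p = 0.00114, limma), at 15 min by 0.67 and at 20 min by 0.56. Of all 1118 windows, 45.7%, 47% and 46.1% were called higher at these times. HML-p was level with the shift at 30 min (-0.01, adjusted p = 0.958). It was below it at 45 min by a log2 difference of -0.43 (adjusted p = 0.00357) and at 60 min of -0.76 (SE 0.12, adjusted p = 6.07e-06). HML-I took the same path from 0.67 at 15 min to -0.63 at 60 min. Both sites thus kept a larger share of their 0 min signal than the median window early on and a smaller share at 60 min. No background was subtracted from these signals.

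HML-E and YCL068C approached the median window without passing below it. HML-E was 1.05 above at 20 min (SE 0.14, adjusted p = 3e-07, limma) and 0.19 above at 60 min (adjusted p = 0.218), and YCL068C 0.66 and 0.22 (adjusted p = 0.27). The subtelomeric windows rose to between 1.40 and 1.51 above it at 30 min and stayed between 1.19 and 1.34 above it at 60 min. In all, 6 of the 10 windows were above the shift of the median signal at 60 min (43.5% of all 1118) and 2 below (26.7%).

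**Figure D3:**
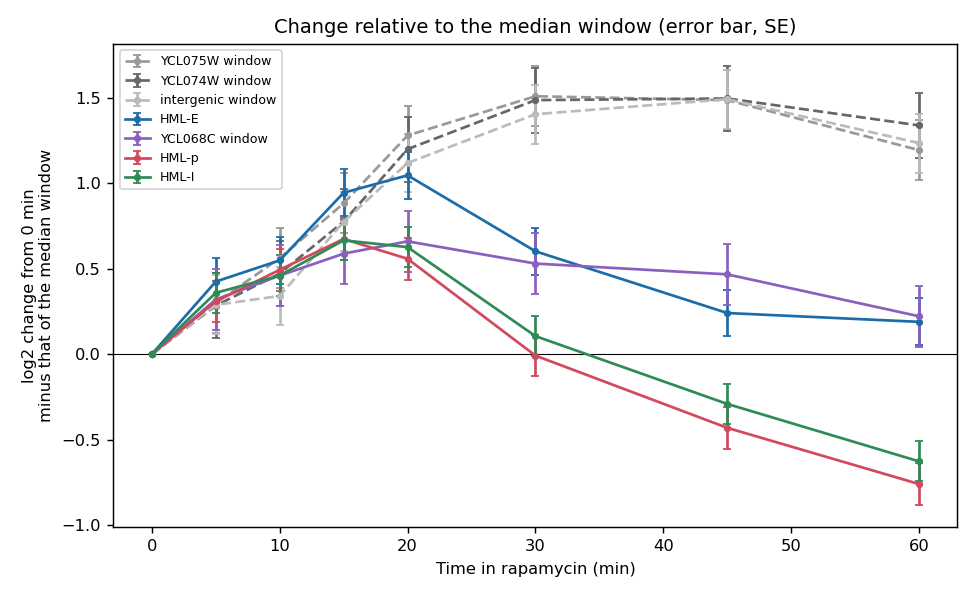
Log2 change from 0 min minus the shift in each library's median log2 signal, against minutes in rapamycin, for the 3 subtelomeric windows (dashed grey) and the 4 HML windows (solid). Error bars are standard errors from limma and the line at 0 is that shift. HML-p and HML-I cross the line near 30 min, HML-E and YCL068C come down to it, and the subtelomeric windows stay above it.

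Comparison inside HML does not depend on the spike-in, since it uses ratios within a library. At 0 min HML-p was above HML-E in both replicates, by 1.34 and 1.22 times. The ratio was 1.10 and 1.01 at 15 min, 0.972 and 0.848 at 20 min and 0.680 and 0.636 at 60 min. The order of the promoter and E silencer signals was therefore turned between 15 and 20 min in both replicates. These signals were not divided by input, which at 0 min was 144 and 299 at HML-p and 185 and 440 at HML-E. The fall of the ratio does not depend on that difference, but the time at which it passed 1 does.

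In limma on values relative to HML-p, HML-E had a log2 change 0.95 higher at 60 min (SE 0.18, adjusted p = 2.78e-07) and was already higher at 20 min by 0.49 (adjusted p = 0.00973). YCL068C was 0.98 higher at 60 min (adjusted p = 1.06e-07) and 0.10 at 20 min (adjusted p = 0.616). HML-I differed from HML-p by 0.13 at 60 min, with a 95% interval from -0.22 to 0.49 (adjusted p = 0.485), and their ratio stayed between 1.02 and 1.31 in all 16 libraries. Relative to HML-p 8 of the 9 other windows were higher at 60 min, all but HML-I (79.7% of all 1117 windows).

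The silencers differed from each other. HML-I over HML-E went from 1.02 and 1.11 at 0 min to 0.578 and 0.625 at 60 min, and relative to HML-E the log2 change of HML-I was -0.82 (SE 0.21, adjusted p = 0.000414, limma). HML-p and HML-I were the 2 windows below HML-E (26.5% of all), 6 were above (29.6%), and YCL068C, 719 bp from HML-E, was not told apart from it at 60 min (0.03, SE 0.21, adjusted p = 0.903). At 0 min HML-E had 2.58 and 2.95 times the signal of YCL068C and at 60 min 2.50 and 2.96 times. In between the replicates lay further apart, at 2.92 and 4.51 times at 20 min and 1.78 and 3.17 times at 45 min.

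**Figure D4:**
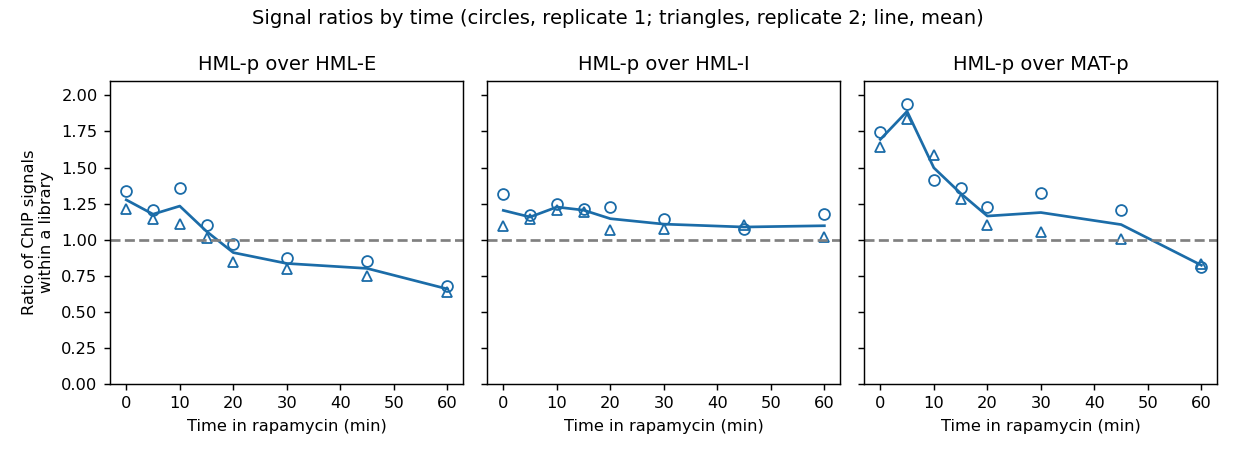
Ratio of the ChIP signal of HML-p to that of HML-E, HML-I and MAT-p within each library against minutes in rapamycin; circles are replicate 1, triangles replicate 2, lines the mean, and the dashed line marks equal signal. The ratio to HML-E passes 1 between 15 and 20 min, that to HML-I stays above 1, and that to MAT-p ends at 0.810 and 0.834.

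MAT-p (200151-200451), the same promoter at the expressed locus, began with a lower signal than HML-p and ended with a higher one. It had 457 and 592 at 0 min and 91.2 and 129 at 60 min, and HML-p over MAT-p went from 1.74 and 1.65 to 0.810 and 0.834. Input at 0 min was also higher at MAT-p (177 and 391) than at HML-p (144 and 299). The signals were not divided by input, so their order at 60 min is not an order of binding. The fall of the ratio does not depend on input. MAT-p was also compared by its change. Relative to HML-p its log2 change at 60 min was 1.04 higher (SE 0.18, adjusted p = 1.78e-08, limma). It kept 20.9% ± 1.35 (SD, n = 2) of 0 min, near HML-E, and relative to HML-E it differed by 0.09 (adjusted p = 0.735).

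By likeness of course, HML-p and HML-I were each other's closest window of all 1117, with a root mean square difference of 0.14 in log2 change over the 14 later libraries. The next for HML-p were a window on chromosome VII (1011159-1011459) with 0.24 and one upstream of ORC2, which encodes a subunit of the origin recognition complex, with 0.25. For HML-I the next were in the ribosomal protein gene RPL26A with 0.19 and a window upstream of PEP5 with 0.23. HML-E was closest to MAT-p with 0.16, then to windows upstream of NEW1 with 0.22 and between RPC40 and DBF20 with 0.22, and from HML-p it ranked only number 129 with 0.54.

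Decay curves with a plateau were fitted per replicate, and an apparent residence time was taken as the inverse of the rate. They passed in both replicates in 6 of the 10 windows (90.9% of all). HML-E had 16.5 min (95% interval 7.21 to 37.7), HML-p 15.6 min (8.26 to 29.3), HML-I 15.5 min (7.59 to 31.5) and YCL068C 12.9 min (6.14 to 26.9), with intervals that overlapped. The intervals come from the standard errors of the fits. They cover the scatter of the times around each curve and not the spread between isolates. Replicates 1 and 2 gave 16.2 and 16.8 min at HML-E, 15.3 and 15.8 min at HML-p and 16.5 and 14.5 min at HML-I. MAT-p had 17.0 min (10.9 to 26.4), and the median of all windows that passed was 9.501 min. These times depended strongly on the fit: HML-E, HML-p and HML-I had 5.83, 7.09 and 6.41 min when 0 min was left out and 122, 37.1 and 36.1 min when the total took the place of the spike-in, so their order has no settled direction. The fitted plateaus were 17.0% and 12.5% of 0 min for HML-E, but 7.29% and 3.64% for HML-p and 8.005% and 5.73% for HML-I.

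The windows nearer to the end gave no such estimate. YCL075W and the intergenic window failed in replicate 1, YCL074W failed in replicate 1 and had no fit in replicate 2, and the left end window had none in replicate 1. Where the subtelomeric windows could be fitted, the plateaus were 57.3% and 35.5% in YCL075W, 55.1% in replicate 1 of YCL074W and 54.6% and 34.7% in the intergenic window.

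The right flank windows (III_cer.15251.15552 and III_cer.15270.15571, at 15252-15552 and 15271-15571), beyond HML-I and before the start of CHA1, a gene for serine and threonine breakdown, overlap by 282 bp and are close to 1 region. Their 0 min signals were 6.01 and 6.91 in the first and 6.28 and 6.32 in the second, which put them at 1116 and 1117 of 1118. The first held 44 and 35 reads at 0 min (exact Poisson 95% intervals 32.0 to 59.1 and 24.4 to 48.7, counting error only) and 12 and 19 at 60 min, and the second 46 and 32 and then 22 and 13.

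Their input was as low as their ChIP, at 11.2 and 36.1 in the first and 7.49 and 18.0 in the second, ranks 4 and 3 from the bottom. Among the 1033 windows that overlap no other window the median input was 300.7 and the lowest 48.9, while 85 windows overlap another and their median input was lower the longer the overlap. The part of the overlap in the signal of these windows was not tested. Because of that input, the level of this pair was compared with that of other windows only by rank and by ChIP over input.

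Both were called lower at 60 min, with log2 changes of -1.29 and -1.18 (SE 0.27) on a scale whose pseudocount of 1 understates them, and kept 32.6% ± 14.8 and 35.5% ± 4.64 (SD, n = 2). The ChIP over input of the first was not told apart from the median window (log2 ratio -0.29, SE 0.15, adjusted p = 0.105, limma), but was below it in the fit with the replicate block (adjusted p = 0.0193). In the second it was 0.43 (SE 0.14, adjusted p = 0.0138, limma), with 1.58 and 0.976 times the median window in replicates 1 and 2. These rest on 6 to 14 input reads per library.

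**Figure D5:**
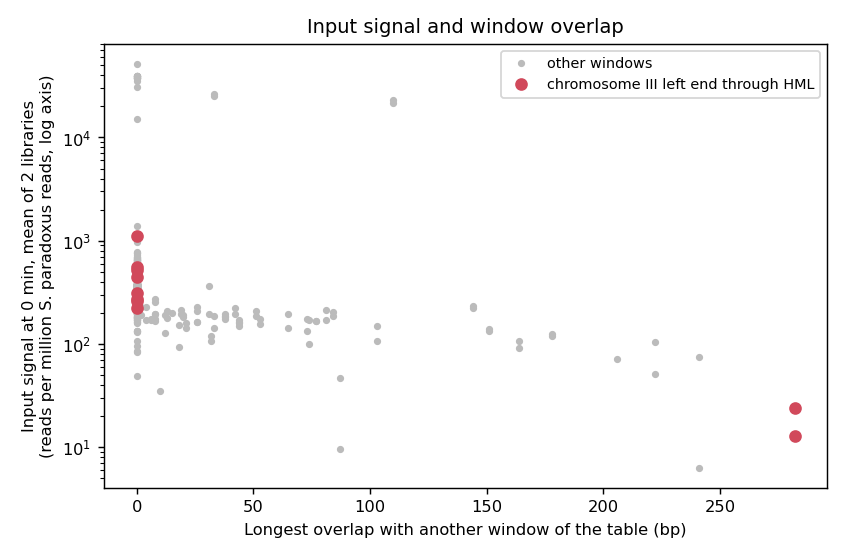
Input signal at 0 min (mean of 2 libraries, reads per 1000000 S. paradoxus reads, log axis) of each window against its longest overlap with another window in bp; red points are the windows of the left end of chromosome III and grey points all others. The right flank pair, with 282 bp of overlap, lies at 12.8 and 23.6, and the median input falls from 300.7 without overlap to 176, 136, 70.6 and 18.2 in 4 bins of rising overlap, with single windows far from these medians.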

How the data were processed

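The windows and lists were chosen with earlier results of these data known. The authors aligned reads with Bowtie2 (CASAVA 2.2 and SAMtools are also named in the submitters' processing notes) to a modified sacCer3 joined with the S. paradoxus genome, called MACS summits on 0 min ChIP and counted reads within 150 bp of each. The deposited signal is these reads per 1000000 S. paradoxus reads. The authors also deposited the count of S. paradoxus reads of each library. Signal times these counts came within 0.01 of whole reads in 100% of values, but only the signal was tested. The table has 14 columns of further inputs and 1 line naming no window, neither of which was used. Positions are 1-based, and genes come from the R64 annotation.

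Tests were 2-sided in R 4.3.3 with limma 3.58.1, fitting log2(signal + 1) of all 16 ChIP libraries to time as a factor, adjusted by Benjamini-Hochberg over the 1118 windows at a threshold of 0.05. Relative tests subtracted the median log2 value over all windows, or the log2 value of a named window, in each library. ChIP over input used the 4 libraries of 0 min after the median of each was subtracted. Decay fits used nls with SSasymp and passed at p under 0.05 in both replicates. Distances to ends used the chromosome lengths listed beside the study's sites. All 10 windows, MAT-p and, for HML-E, HML-p, HML-I and the left end window, the 3 most similar windows are named. Intervals from reads cover counting error only. A withheld stretch of the HML promoter is not reported here.

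Same-numbered libraries come from the same isolate by the labels, so the numbers pair them. Over the 28 pairs of times, their deviations correlated between -0.208 and 0.408 (median 0.168). The fits here have no block, which is an alternative, as are pseudocounts of 0.1 and 5, a minimum 0 min signal of 50, scaling to the total, a plateau of 0 and leaving out libraries. The scripts were tested on simulated data.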

Additional observations from a re-analysis of the deposited data

How the results depend on the processing

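With scaling to the total over all windows, windows called lower went from 8 to 2 at 10 min and from 9 to 4 at 60 min, and the 60 min change turned to 1.07 in the left end window, 0.036 in YCL075W, 0.18 in YCL074W and 0.068 in the intergenic window. Leaving out 1 library gave 1 to 8 windows lower at 10 min, 9 in each case at 60 min, and 1 to 3 lower from 20 to 60 min. It moved HML-I relative to HML-p at 60 min between -0.0010 and 0.27 and YCL068C relative to HML-E between -0.091 and 0.16, so neither has a settled sign. The first right flank window's ChIP over input was 0.030 with a pseudocount of 5. The replicate block, which the pairing allows, left 9 windows lower at 60 min and changed no call of 60 against 0 min; where it changed a reported call, the value stands in the report. With a plateau of 0 the residence times of HML-E, HML-p and HML-I were 23.3, 17.5 and 17.9 min and the other 2 settings moved them as the report gives. The cause of these shifts was not tested. With 1 library per isolate and time, and as few as 6 reads in an input window, small differences were not detectable. Of 422 comparisons of single-window values with an alternative, 387 kept direction and call or moved within the replicate spread.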
